A study of Mus musculus with 16 samples.

Results

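The lysyl oxidases and lysyl hydroxylases are enzymes of collagen crosslinking, and all 8 genes of the mouse families were looked up by symbol in an RNA-seq table of 43629 genes. They are Lox, Loxl1, Loxl2, Loxl3 and Loxl4 among the oxidases and Plod1, Plod2 and Plod3 among the hydroxylases. Each of the 8 symbols matched 1 gene, and all 8 passed the filter on low values that left 23816 genes for testing. The RNA came from microvascular endothelial cells of the heart, captured with magnetic beads against CD31, from C57BL/6J mice aged 8 to 10 weeks. Every group, controls included, received tamoxifen by intraperitoneal injection, and cells were taken on day 6 after it. The groups were a double knockout of Klf2 and Klf4 in endothelial cells (DKO), a knockout of Klf2 alone (K2KO), a knockout of Klf4 alone (K4KO) and Cre controls, with 4 samples each and 2 mice pooled per sample. The sources used here do not name the promoter that drives the Cre recombinase.

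Klf2 and Klf4 encode zinc-finger transcription factors of the Krueppel-like family that endothelial cells express under blood flow. In the K2KO libraries, Klf2 averaged 3354 ± 203 scaled counts (gene reads that the authors divided by 1 factor per library), against 7227 ± 2359 in controls (SD, n = 4 each; limma adjusted p = 0.00682). In the K4KO libraries, Klf4 averaged 5819 ± 705 scaled counts, against 9691 ± 2466 in controls; the 2 ranges did not overlap, and the adjusted p was 0.118. Neither gene was lower in the libraries labelled DKO. There Klf2 averaged 9066 ± 1538 scaled counts, against 7227 ± 2359 in controls (limma adjusted p = 0.0881), and Klf4 averaged 9447 ± 1898, against 9691 ± 2466 (adjusted p = 0.923). Whole-gene counts include reads outside a deleted exon, and the sources used here do not name the deleted exons, so these libraries are called DKO-labelled throughout. A library held 25.3 to 29.3 M gene reads (megareads) in the DKO-labelled group, apart from 1 with 106 M, and a K2KO library held 32.4 to 51.0 M. The K4KO libraries had 21.1 to 25.4 M and the controls 23.5 to 24.3 M. The 12 endothelial markers summed to 314051 to 362281 scaled counts in the DKO-labelled libraries and to 265728 to 327464 in controls. In K2KO the sum was 296032 to 332758 and in K4KO 271858 to 297064. Cardiomyocyte genes were detected as well. The mean sum of 12 cardiomyocyte markers was 69093 in the DKO-labelled group, 328209 in K2KO, 385690 in K4KO and 323064 in controls. The mean endothelial sums were 337343, 313482, 282178 and 302006 in that order. Of the endothelial markers, 5 rose and 3 fell in the DKO-labelled cells against controls. Cdh5, the cadherin of endothelial junctions, averaged 106189 ± 10607 scaled counts in the DKO-labelled group and 57222 ± 5769 in controls (SD, n = 4 each). Tek, the angiopoietin receptor, averaged 10940 ± 1360 and 21621 ± 1294 (log2 change -0.99, limma adjusted p = 1.85e-07), and the other two that fell were Kdr, a VEGF receptor (-0.54), and Emcn (-0.34).

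Collagen is made in the endoplasmic reticulum, where lysyl hydroxylases add a hydroxyl group to chosen lysines before the chains fold. Outside the cell, lysyl oxidases, copper enzymes, turn lysines and hydroxylysines into reactive aldehydes that join neighbouring collagen and elastin molecules. Which lysines were hydroxylated decides the chemistry and the durability of the crosslink, and in the heart these enzymes are known for their part in fibrosis and stiffness of the matrix.

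In the DKO-labelled cells 6 of the 8 genes were higher than in Cre controls and none was lower. Loxl2 rose 5.51-fold, Loxl4 2.25-fold and Plod2 2.00-fold, while Lox, Plod1 and Plod3 rose 1.31- to 1.35-fold. Loxl1 and Loxl3 did not pass the test. A gene was called at a Benjamini-Hochberg adjusted p below 0.05 over all genes tested, in a limma model of log2(scaled count + 1) over 16 libraries. In that comparison 19% of all genes tested were called higher. The members' median change was 0.42 on the log2 scale, against -0.03 over all genes. All 4 DKO-labelled libraries lay above all 4 controls for those same 6 genes, against a background of 18.9% of all genes tested. For Lox that margin was smaller than the value of a read. Each of the 6 had an exact two-sided permutation p of 0.0286, the smallest that 4 libraries against 4 allow. In bulk RNA a change in the number of cells of a type and a change in RNA per cell cannot be told apart.

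In the single knockouts no member passed the test. In K2KO 0 of 8 were called, where 0.168% of all genes were, and in K4KO 0 of 8, where 0.063% of all genes were. At an unadjusted p below 0.05, limma gave 1543 and 1681 genes in those comparisons, among them Lox and Loxl4 in K2KO and Lox and Plod1 in K4KO. On the recovered reads edgeR called 0 members in either, and DESeq2 called 1 in K2KO (Loxl4) and 0 in K4KO. Over all genes edgeR called 43 and 17 of 15694 in those comparisons, and DESeq2 123 and 80 of 16826. The plot of changes with their intervals sets the comparisons side by side. The 3 comparisons share their control libraries, so likeness between them is in part a property of those controls.

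**Figure D1:**
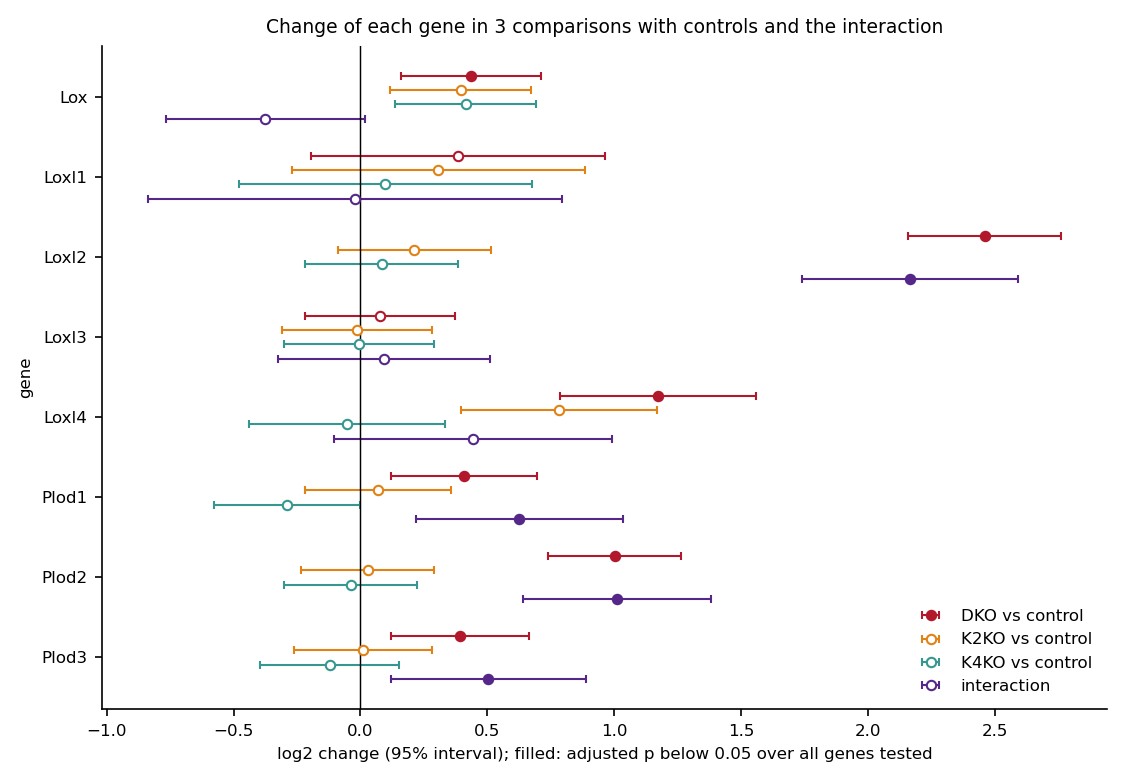
Log2 change of each gene, with its 95% interval, in the DKO-labelled, K2KO and K4KO groups against controls, and the interaction (the change between DKO-labelled and K2KO minus the change between K4KO and control). Filled points have an adjusted p below 0.05. The Loxl2 and Plod2 changes in the DKO-labelled group (2.46 and 1.0) stand apart from the values near 0 in the single knockouts, while Lox has like values in all 3 groups.

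The oxidases share a catalytic domain with a copper site whose residue pattern holds 4 histidines. The coding bases of that site are shown for the 4 oxidases on chromosomes other than that of Lox, because they show how alike and how distinguishable these transcripts are. The sequences are from GENCODE M21 transcripts (GRCm38), 5′ to 3′ on the coding strand, with the histidine codons in capitals.
Loxl1: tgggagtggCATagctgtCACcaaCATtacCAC
Loxl2: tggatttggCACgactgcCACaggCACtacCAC
Loxl3: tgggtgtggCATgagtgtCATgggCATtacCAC
Loxl4: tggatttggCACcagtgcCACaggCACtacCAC
The 33 bases are split by an intron in each gene, between exons 3 and 4 of Loxl1, 10 and 11 of Loxl2 and of Loxl3, and 11 and 12 of Loxl4. They span chr9:58293720-58294381 (minus strand), chr14:69682316-69689037 (plus), chr6:83049995-83050125 (plus) and chr19:42598807-42599899 (minus), introns included. The sites were found with a residue pattern that fixes the 4 histidines and some neighbours, so their shared register was set by the search. The same pattern limits how far these bases can differ. Loxl2 and Loxl4 differed at 2 of the 33 bases, and Loxl1 and Loxl4, the least alike pair, at 12. Over whole transcripts the longest identical stretch was 23 bases between Loxl2 and Loxl4 and 32 bases between Lox and Loxl1, the longest of the 10 pairs of oxidases. Among the 3 pairs of hydroxylases it was at most 24 bases.

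Loxl2 (ENSMUSG00000034205, chr14:69609068-69695834, plus strand, GRCm38) encodes a secreted oxidase with scavenger receptor domains that acts on basement membrane collagen IV. Its 4 DKO-labelled libraries had 1989, 2738, 3413 and 2169 scaled counts. The K2KO libraries had 573, 519, 479.8 and 548, the K4KO libraries 404, 525, 524 and 495, and the controls 410.2, 408, 472 and 550.0. All DKO-labelled libraries were far above every other library, and the other 3 groups overlapped. The log2 change was 2.46 ± 0.14 (SE) against controls (limma adjusted p = 4.23e-10), a 5.51-fold difference with a 95% interval of 4.47 to 6.79. Of all genes tested, 219 had a larger change. Against K2KO the log2 change was 2.25 ± 0.14 (adjusted p = 1.98e-09) and against K4KO 2.38 ± 0.14 (adjusted p = 8.46e-10).

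In the single knockouts Loxl2 did not pass the test. The changes against controls were 0.21 ± 0.14 in K2KO (limma adjusted p = 0.945) and 0.08 ± 0.14 in K4KO (adjusted p = 0.918), with 95% intervals of -0.09 to 0.51 and -0.22 to 0.39. The interaction, which is the part of the DKO-labelled change beyond the sum of both single changes, was 2.17 ± 0.20 (adjusted p = 1.10e-06). Loxl2 kept its calls against controls, against both single knockouts and in the interaction with every library left out in turn. An antisense gene, Gm27177, shares 301 exon bases with Loxl2, and it was listed at 0 in every group.

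Loxl4 (ENSMUSG00000025185, chr19:42593982-42612813, minus strand) encodes a secreted oxidase that was, among the 4 compared at the copper site, the one most like Loxl2 there. It had 25 to 353 reads per library. The DKO-labelled libraries had 86.5, 88.9, 108 and 110.5 scaled counts. The K2KO libraries had 72.8, 65.5, 79.8 and 80.3, the K4KO libraries 52.5, 33.6, 46.4 and 35.5, and the controls 40.8, 33.9, 51.9 and 46.8. The levels formed 3 tiers without overlap, with DKO-labelled above K2KO and K2KO above both K4KO and controls, which overlapped. Loxl4 rose in the DKO-labelled cells by 1.17 ± 0.18 on the log2 scale against controls (limma adjusted p = 4.13e-05) and by 1.22 ± 0.18 against K4KO (adjusted p = 2.57e-05).

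The middle tier of Loxl4 did not pass the test. In K2KO it was 0.78 ± 0.18 above controls (95% interval 0.39 to 1.17; unadjusted p = 0.000471, limma adjusted p = 0.130), and DESeq2 on the recovered reads called it with an adjusted p of 0.0214. Between K2KO and K4KO the difference was 0.83 ± 0.18 (limma adjusted p = 0.0534); it was called by edgeR (adjusted p = 0.0351), by DESeq2 (0.00567) and without K4KO library 1 (0.0392). In that comparison 0 of 8 members and 0.445% of all genes were called by limma. Between the DKO-labelled group and K2KO the difference was 0.39 ± 0.18 (limma adjusted p = 0.111). Other settings called it: the compared groups alone (0.39, adjusted p = 0.0396), edgeR (0.38, 0.04999) and DESeq2 (0.42, 0.0378) on the recovered reads, quantile normalisation (0.59, 0.0216) and scaling to 1 median (0.66, 0.00904). The interaction of Loxl4 was 0.44 ± 0.26 (limma adjusted p = 0.233), and scaling to 1 median called it at 0.76 (0.0397). In K4KO the change against controls was -0.05 ± 0.18, with an interval of -0.44 to 0.33.

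RefSeq's table of gene starts (GRCm38.p6) holds 300 bases around the start of 3 of the 8 genes, Loxl4, Plod1 and Plod3, and not those of Lox, Loxl1, Loxl2, Loxl3 and Plod2. They run from 250 bases before to 50 after the start. The sequences are shown, 5′ to 3′ on the gene's strand, because Krueppel-like factors are known to bind CACCC elements. CACCC, and ACGTG, the core of the hypoxia response element, are in capitals where they occur on either strand.
Loxl4: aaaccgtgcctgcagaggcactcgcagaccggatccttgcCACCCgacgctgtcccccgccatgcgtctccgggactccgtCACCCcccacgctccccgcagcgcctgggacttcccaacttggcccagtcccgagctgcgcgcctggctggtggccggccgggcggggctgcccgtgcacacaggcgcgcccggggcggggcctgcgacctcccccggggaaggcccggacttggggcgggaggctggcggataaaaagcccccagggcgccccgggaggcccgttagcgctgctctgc
Plod1: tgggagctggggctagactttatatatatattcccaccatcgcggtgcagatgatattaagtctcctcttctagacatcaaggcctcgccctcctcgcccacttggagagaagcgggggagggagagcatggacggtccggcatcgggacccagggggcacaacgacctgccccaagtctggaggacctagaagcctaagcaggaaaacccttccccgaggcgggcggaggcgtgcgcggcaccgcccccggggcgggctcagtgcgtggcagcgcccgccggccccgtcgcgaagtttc
Plod3: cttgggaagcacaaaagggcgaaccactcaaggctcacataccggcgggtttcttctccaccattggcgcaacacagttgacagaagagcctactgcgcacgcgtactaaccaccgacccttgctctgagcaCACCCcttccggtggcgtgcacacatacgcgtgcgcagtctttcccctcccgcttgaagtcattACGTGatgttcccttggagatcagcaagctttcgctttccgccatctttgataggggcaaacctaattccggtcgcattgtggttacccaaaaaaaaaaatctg
The Loxl4 window, chr19:42612757-42613056 (minus strand), has 75.0% G and C and holds CACCC at 210 and at 169 bases before the start. The Plod1 window, chr4:147936727-147937026 (minus strand), holds neither motif. The Plod3 window, chr5:136986769-136987068 (plus strand), holds CACCC at 118 bases and ACGTG at 54 bases before the start. Of all 32851 windows in the table, 57.5% hold CACCC and 19.6% hold ACGTG, so these matches are common letters and say nothing of binding.

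Lox (ENSMUSG00000024529, chr18:52516069-52529867, minus strand) encodes the founding oxidase, which crosslinks fibrillar collagen and elastin after its propeptide is cut off. The DKO-labelled libraries had 493, 649.5, 664 and 531 scaled counts. The K2KO libraries had 524, 565, 602 and 566, the K4KO libraries 481, 623, 485 and 736, and the controls 436, 402, 493 and 389. All DKO-labelled and all K2KO libraries lay above every control, and 2 of 4 K4KO libraries did. The lowest DKO-labelled library (493.31) and the highest control (492.86) were nearly equal, where a read was worth 1.11 and 1.21 scaled counts. Against controls Lox rose in the DKO-labelled cells by 0.44 ± 0.13 on the log2 scale (limma adjusted p = 0.0130), a call that held in every alternative and with every library left out.

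Of the 6 genes called, Lox had the smallest differences between the DKO-labelled cells and the single knockouts. Its change against controls was 0.40 ± 0.13 in K2KO (95% interval 0.12 to 0.67; unadjusted p = 0.00775, limma adjusted p = 0.462) and 0.42 ± 0.13 in K4KO (0.14 to 0.69; unadjusted p = 0.00553, adjusted p = 0.452). Neither passed the test over all genes. The DKO-labelled group differed from K2KO by 0.04 (interval -0.24 to 0.32) and from K4KO by 0.02 (-0.26 to 0.30). The interaction had a negative sign, -0.37 ± 0.19 (unadjusted p = 0.0600, limma adjusted p = 0.154). Lox and Loxl4 were the 2 of 8 members with all 4 K2KO libraries above every control, against 2.69% of all genes tested, and 0 of 8 had that pattern in K4KO, against 1.49%.

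Loxl1 (ENSMUSG00000032334, chr9:58287723-58313212, minus strand), the oxidase needed for elastic fibre upkeep in mice, varied more within groups than between them. It averaged 137 ± 47.0 scaled counts in the DKO-labelled libraries, 129 ± 37.8 in K2KO, 114 ± 43.4 in K4KO and 103 ± 25.9 in controls (SD, n = 4 each). All groups overlapped. The change of the DKO-labelled group against controls was 0.38 ± 0.28 on the log2 scale (interval -0.19 to 0.96; limma adjusted p = 0.312). Loxl3 (ENSMUSG00000000693, chr6:83034173-83052562, plus strand), an oxidase needed for palate and spine development in mice, averaged 219.8 ± 35.4, 206 ± 24.7, 208 ± 33.4 and 207 ± 23.9 scaled counts in the same order of groups. Its largest difference between groups was 0.09 on the log2 scale, between DKO-labelled and K2KO (interval -0.21 to 0.39; adjusted p = 0.675). Scaling the libraries to 1 median raised the DKO-labelled group's difference to 0.36 from K2KO (limma adjusted p = 0.0408) and to 0.39 from K4KO (0.0264), both called. Loxl3 shares 535 exon bases with Htra2 on the opposite strand, and the sources used here do not say whether counting used the strand.

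**Figure D2:**
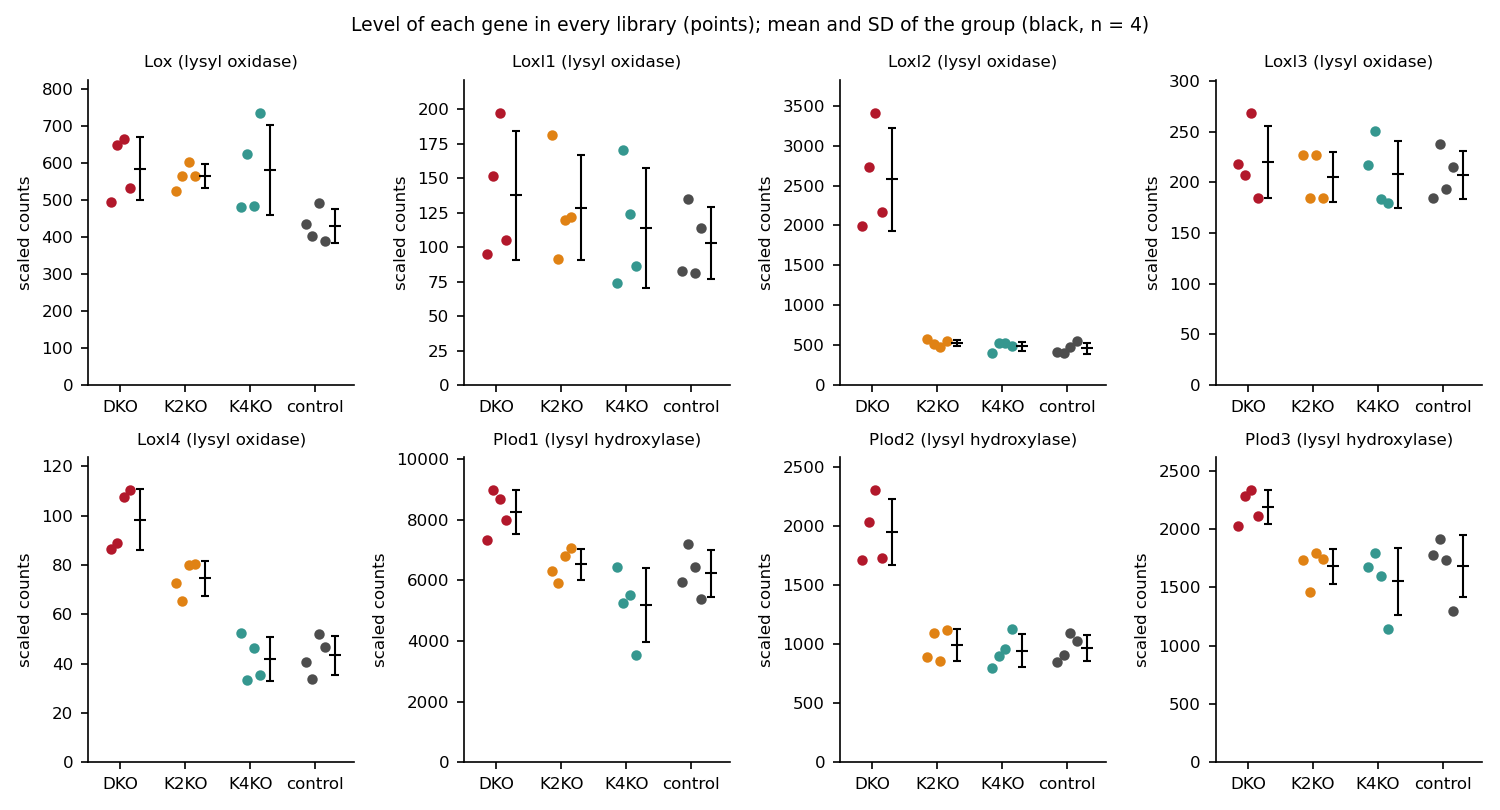
Scaled counts of each gene in every library, with the mean and SD of each group of 4 in black. Loxl2 and Plod2 are high in the 4 DKO-labelled libraries alone, Loxl4 falls into 3 tiers, the Lox controls sit at the bottom (389 to 493), and the groups of Loxl1 and Loxl3 overlap.

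Plod2 (ENSMUSG00000032374, chr9:92542223-92608428, plus strand) encodes the hydroxylase of the collagen telopeptides, which gives the stable hydroxylysine-derived crosslinks found in fibrotic tissue. The DKO-labelled libraries had 1715, 2030.1, 2304 and 1732 scaled counts. The K2KO libraries had 889, 1090.2, 858 and 1123, the K4KO libraries 796, 899.5, 959.7 and 1127, and the controls 845, 907, 1093 and 1029. Every DKO-labelled library was above every other library, with no overlap, and the other 3 groups covered the same range. Plod2 rose by 1.0 ± 0.13 against controls (limma adjusted p = 3.03e-06), a 2.00-fold difference with an interval of 1.67 to 2.40. It rose by 0.97 ± 0.13 against K2KO (adjusted p = 4.91e-06) and by 1.04 ± 0.13 against K4KO (adjusted p = 1.96e-06).

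In K2KO the Plod2 change against controls was 0.03 ± 0.13 on the log2 scale (interval -0.23 to 0.29), and in K4KO it was -0.04 ± 0.13 (-0.30 to 0.22). The interaction was 1.01 ± 0.18 (limma adjusted p = 3.15e-04), and this call too held with each library left out. A transcript of unknown kind on the opposite strand, RP23-298I7.2, shares 346 exon bases with Plod2 and averaged 76.1 scaled counts in the DKO-labelled libraries and 53.5 in controls. Between Loxl2 and Plod2, Pearson's r of the log2 levels was 0.96 over the 16 libraries and 0.70 after each group's mean was removed. These values describe libraries that share groups and cells.

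Plod1 and Plod3 encode the hydroxylases that act mainly on the helical part of collagen, and the PLOD3 protein is also a glucosyltransferase. Plod1 (ENSMUSG00000019055, chr4:147909753-147936767, minus strand) had 7343, 8985, 8693 and 8003 scaled counts in the DKO-labelled libraries. It had 6317, 5923, 6811 and 7063 in K2KO, 6460.2, 5272, 5513 and 3543 in K4KO, and 5936, 7217, 6434 and 5382 in controls. Plod3 (ENSMUSG00000004846, chr5:136987019-136996648, plus strand) had 2025, 2283, 2335 and 2115 scaled counts in the DKO-labelled libraries. It had 1732, 1463, 1790.4 and 1740.3 in K2KO, 1673, 1796, 1596 and 1142 in K4KO, and 1778, 1914, 1736 and 1299 in controls. For both genes every DKO-labelled library was above every other library, the margin over the highest control was small, and the lowest of all was K4KO library 4.

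Both rose in the DKO-labelled cells against controls, Plod1 by 0.41 ± 0.14 on the log2 scale (limma adjusted p = 0.0244) and Plod3 by 0.39 ± 0.13 (adjusted p = 0.0215). These calls were near the threshold. With quantile normalisation the changes were 0.22 and 0.25 (adjusted p = 0.221 and 0.136), and with robust limma without a trend the adjusted p was 0.0611 and 0.0547. The Plod1 call was lost without DKO library 3 (adjusted p = 0.0728), DKO library 4 (0.0589), control 1 (0.0596) or control 4 (0.0768). The Plod3 call was lost without DKO library 3 (0.0551), DKO library 4 (0.0564) or control 4 (0.0891).

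Against K4KO the same pair rose by 0.70 ± 0.14 and 0.51 ± 0.13 (limma adjusted p = 4.25e-04 and 0.00350). Against K2KO Plod3 rose by 0.38 ± 0.13 (limma adjusted p = 0.0262), a call lost without DKO library 3 (0.0655), DKO library 4 (0.0663) or K2KO library 3 (0.0918). It was also lost with quantile normalisation (0.24, adjusted p = 0.165) and robust limma (0.0636). The Plod1 difference from K2KO of 0.34 ± 0.14 had a limma adjusted p of 0.0633. That difference was called with the compared groups alone (0.00357), the same median (0.00236), DESeq2 (0.0439) and without DKO library 2 (0.0479). In K2KO their changes against controls were 0.07 and 0.01. In K4KO they were -0.29 (interval -0.58 to -0.00046; unadjusted p = 0.0497, limma adjusted p = 0.707) and -0.12 (-0.39 to 0.15). Plod1 and Plod3 followed each other from library to library, with r = 0.91 over the 16 libraries and 0.85 within groups. This was not particular to the pair. Within groups r was 0.96 between Plod1 and Atxn7l3 and 0.96 between Plod3 and Tbc1d9b, genes picked for their likeness over the 16 libraries. Plod3 shares 529 exon bases with Znhit1 on the opposite strand, which averaged 376 scaled counts in the DKO-labelled libraries and 316 in controls.

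Counted over the whole set, 3 of 8 members were higher in the DKO-labelled group than in K2KO (Loxl2, Plod2 and Plod3), against 17.7% of all genes. Against K4KO 5 of 8 were higher (Loxl2, Loxl4, Plod1, Plod2 and Plod3), against 19.1% of all genes. None was lower in either. The interaction was positive and called for 4 of 8 (Loxl2, Plod2, Plod1 and Plod3), against 12.8% of all genes. The Plod1 interaction was 0.63 ± 0.19 (limma adjusted p = 0.0223) and lost its call with quantile normalisation (0.112), robust limma (0.0592) and the fibroblast marker covariate (0.0567). The Plod3 interaction was 0.50 ± 0.18 (adjusted p = 0.0494) and was called in 4 of the 16 fits that left out 1 library. In the authors' deposited table the adjusted p was below 0.05 for 6 members in the DKO-labelled group against controls, 3 against K2KO and 5 against K4KO. It was below 0.05 for 0 members in the comparisons of single knockouts. Over all genes with such a value it was below 0.05, either way, for 6094 of 28133, 5978 of 32797 and 5893 of 32895 in the comparisons of the DKO-labelled group. For single knockouts these were 45 of 32498 (K2KO) and 30 of 32499 (K4KO) against controls, and 66 of 34560 between them.

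Per kilobase of exon, which allows levels of different genes to be set side by side, Plod1 was the most abundant member in every group, at 1220.4 ± 109 scaled counts per exon kb in the DKO-labelled libraries and 923 ± 115 in controls. Summed over the oxidases, the level was 712 ± 157 per exon kb in the DKO-labelled libraries, 318 ± 16.2 in K2KO, 301 ± 36.9 in K4KO and 262 ± 14.6 in controls. Loxl2 made up 66.7 ± 1.87% of that sum in the DKO-labelled libraries, 30.9 ± 2.11% in K2KO, 30.0 ± 2.56% in K4KO and 32.4 ± 3.31% in controls. Lox made up 17.4 ± 1.47%, 37.3 ± 3.35%, 40.2 ± 5.58% and 34.5 ± 4.23% in the same order, although its own level was not lower. Loxl2 was thus the leading oxidase transcript in the DKO-labelled cells, while in the other 3 groups the mean share of Lox was above that of Loxl2.

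The sum of the hydroxylases was 2066 ± 184 per exon kb in the DKO-labelled libraries, 1521 ± 102 in K2KO, 1287 ± 210 in K4KO and 1474 ± 164 in controls. The Plod2 share was 17.4 ± 1.23% in the DKO-labelled libraries, 12.1 ± 1.86% in K2KO, 14.2 ± 4.86% in K4KO and 12.3 ± 2.19% in controls. The K4KO libraries included 1 at 21.2%. Plod1 made up 59.1 ± 1.17%, 63.4 ± 0.86%, 59.1 ± 4.89% and 62.5 ± 1.27% in that order.

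**Figure D3:**
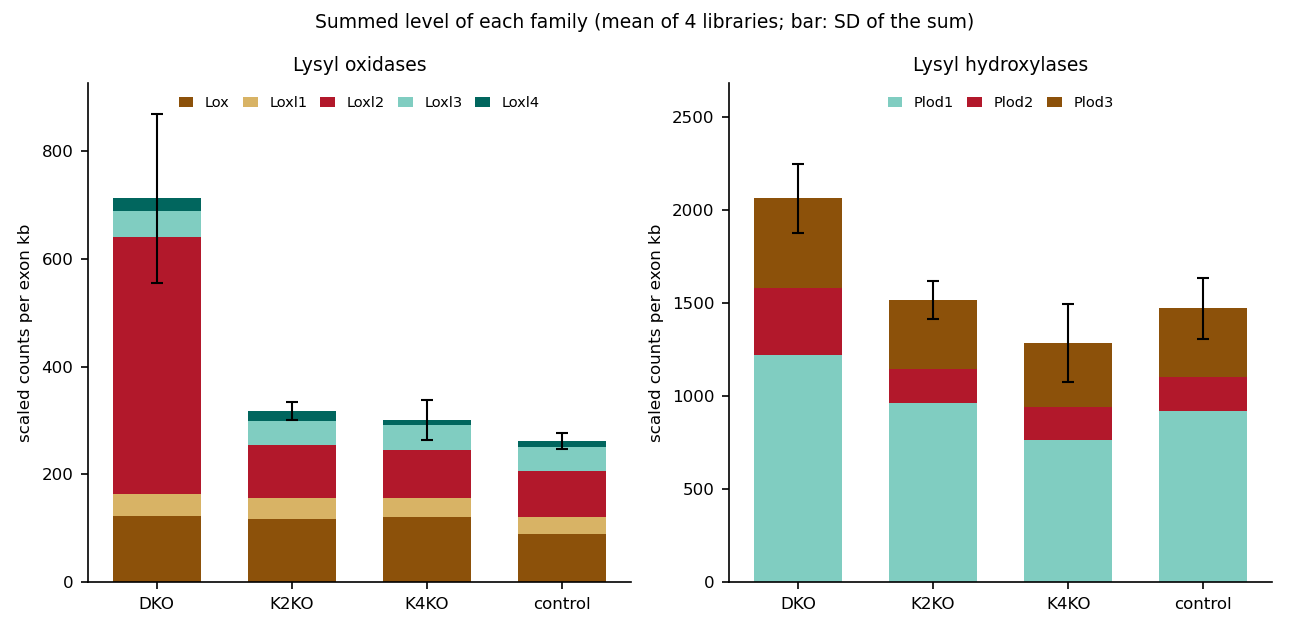
Summed level of each family in scaled counts per exon kb, as the mean of 4 libraries per group, stacked by gene; the bar is the SD of the sum. The oxidase sum is 712 in the DKO-labelled group and 262 in controls, and most of the gap is the Loxl2 layer. The Plod2 layer is 361 in the DKO-labelled group and 180 in controls, and the Plod1 and Plod3 layers are somewhat taller in the DKO-labelled group.

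Genes that work beside these enzymes were read from lists of the collagen pathway in the comparison of DKO-labelled cells with controls. Of all genes tested, 19% were called higher there and 19.3% lower, with a median log2 change of -0.03. Of 10 genes of prolyl hydroxylation, which stabilises the collagen helix, 6 rose and 0 fell, with a median log2 change of 0.42. P4hb, the shared subunit of prolyl 4-hydroxylase, rose by 0.88 ± 0.07 (limma adjusted p = 1.36e-08), and P4ha1, its catalytic subunit, by 0.70 ± 0.12 (6.11e-05). Ppib, a prolyl isomerase of the same compartment, rose by 0.83 ± 0.10 (1.74e-06), and P3h1, a prolyl 3-hydroxylase, by 0.50 ± 0.11 (0.00148).

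Of 13 genes of collagen folding and secretion, 9 rose and 2 fell (median 0.75). Sparc, a collagen-binding matrix protein, averaged 125172 ± 12352 scaled counts in the DKO-labelled libraries and 32994 ± 4655 in controls, a log2 change of 1.93 ± 0.11 (limma adjusted p = 3.24e-10). Fkbp14 and Fkbp10 are prolyl isomerases of the endoplasmic reticulum, of which FKBP10 is known to assist the PLOD2 protein. They rose by 2.37 ± 0.22 (1.20e-07) and 1.56 ± 0.16 (2.20e-07). Sec23a, a coat protein of the vesicles that carry collagen out, rose by 0.99 ± 0.08 (1.00e-08).

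Of 15 genes of procollagen processing and oxidase activation, 10 rose and 2 fell (median 0.47). Tll1, a protease of the family that frees Lox from its propeptide, averaged 846 ± 64.9 scaled counts in the DKO-labelled libraries and 190 ± 5.62 in controls, a log2 change of 2.14 ± 0.12 (limma adjusted p = 3.69e-10). Adamts2, the procollagen N-proteinase, rose by 1.41 ± 0.14 (1.41e-07). Thbs1 and Fn1, matrix proteins that bind collagen and assist its assembly, rose by 2.49 ± 0.19 (8.08e-09) and 0.86 ± 0.10 (1.96e-06).

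Of 11 fibrillar collagen chains, 7 rose and 2 fell (median 0.73). Among those that rose were Col5a2 by 1.93 ± 0.13 (limma adjusted p = 1.91e-09), Col27a1 by 1.54 ± 0.20 (3.88e-06), Col5a3 by 1.17 ± 0.21 (1.94e-04) and Col1a2 by 0.79 ± 0.15 (2.93e-04). Of 14 chains of basement membrane and microfibrillar collagens, 6 rose and 6 fell, with a median of 0.05. Col4a1 and Col4a2, the collagen IV pair of vessel basement membranes, rose by 1.36 ± 0.13 (9.03e-08) and 1.33 ± 0.13 (1.41e-07), and Col18a1, the source of endostatin, by 2.57 ± 0.19 (7.68e-09). Col4a3, a collagen IV chain of the kidney filter, fell by 1.15 ± 0.11 (1.06e-07). Scaling the libraries to 1 median gave 7 higher and 4 lower (median 0.32), and with quantile normalisation 4 and 5 (median -0.02).

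Of 17 elastic fibre genes, 3 rose and 9 fell, with a median of -0.58. Eln, which encodes elastin, the other substrate of the oxidases, averaged 278 ± 25.6 scaled counts in the DKO-labelled libraries and 781 ± 313 in controls (-1.40 ± 0.25; limma adjusted p = 1.63e-04). The fibulins Fbln5 and Fbln2, which help elastin assemble, fell by 1.70 ± 0.12 (3.01e-09) and 1.41 ± 0.16 (9.42e-07), and Ltbp4, a microfibril protein that binds latent TGF-beta, fell by 1.73 ± 0.24 (1.16e-05). Scaling the libraries to 1 median gave 4 higher and 6 lower. In K2KO none of the 80 genes on the 6 lists was called. In K4KO 1 was, Col8a1, which fell by 0.58 (adjusted p = 0.00647).

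**Figure D4:**
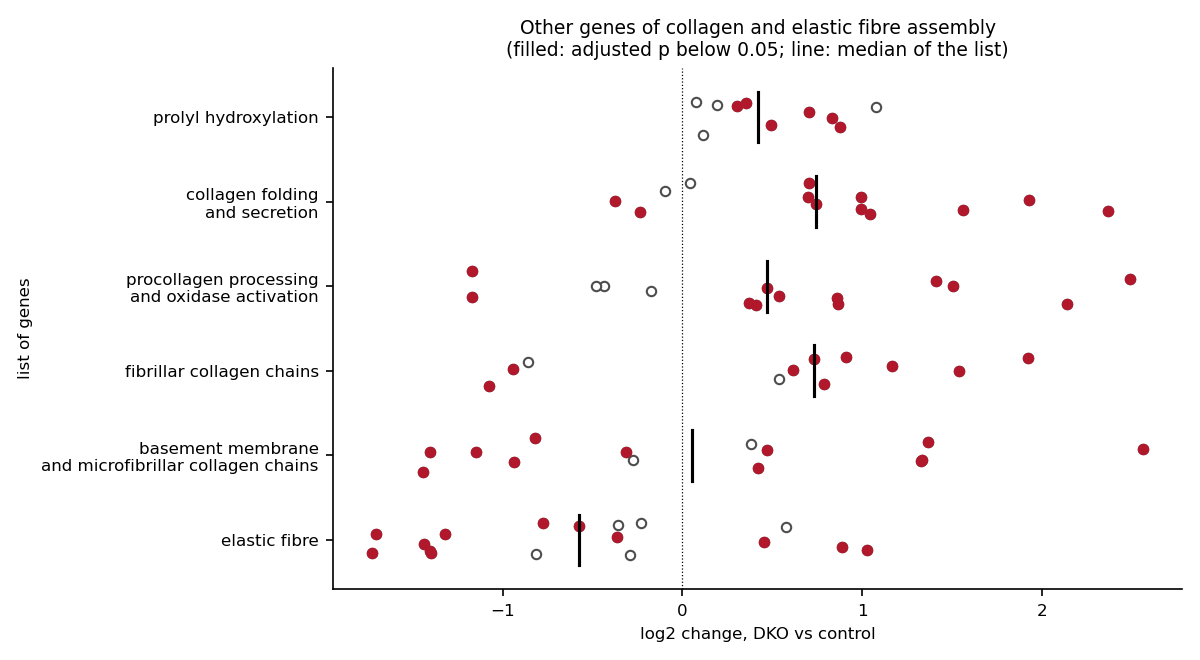
Log2 change of DKO-labelled cells against controls for each gene on 6 lists of the collagen and elastic fibre pathway; filled points have an adjusted p below 0.05 and the vertical line is the median of the list. The first 4 lists have medians of 0.42 to 0.75, the basement membrane list is spread to both sides around 0.05, and the elastic fibre list lies mostly to the left, with a median of -0.58.

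Markers of other cell types of the heart differed between the same groups. Fibroblasts, which also make these enzymes, are one such type: 12 fibroblast markers summed to 8855 to 14408 scaled counts in the DKO-labelled libraries and to 14867 to 16092 in controls, so that every DKO-labelled library was lower. All 12 were detected in every library. Of them 2 rose (Mmp2 and Cd248) and 5 fell, among them Pdgfra, a receptor that defines the type, at 287 ± 68.0 and 586 ± 77.4 scaled counts. Markers of mural cells summed to 77663 to 95079 in the DKO-labelled libraries and 124798 to 134036 in controls, with 0 of 12 higher and 5 lower, against 9 lower with quantile normalisation and 7 with edgeR. Markers of cardiomyocytes summed to 51009 to 87724 and 229012 to 552281 in those groups, with all 12 lower.

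The summed fibroblast markers were lower in the DKO-labelled libraries than in controls, and Loxl2, Plod2 and Loxl4 were higher. Which cells gave the RNA of these genes was not tested. After group means were removed, r with the mean log2 level of the fibroblast markers was taken over 16 libraries. It was 0.86 for Loxl1, 0.74 for Loxl2, 0.58 for Loxl3 and 0.33 for Plod3. For Plod2 it was 0.24, for Plod1 0.16, for Lox 0.15 and for Loxl4 -0.04. These correlations describe libraries that share cell composition and depth. With that level as a covariate, Loxl1 was called in the DKO-labelled group against controls, at 1.03 on the log2 scale (limma adjusted p = 6.87e-04), against 0.38 without it. It was also called over K2KO at 1.03 (0.00370), over K4KO at 1.10 (9.46e-04) and in the interaction at 1.10 (0.0205). In the same fit Loxl2 was higher by 2.74 (adjusted p = 2.83e-10), Loxl4 by 1.16 (6.32e-04) and Plod2 by 1.08 (2.32e-05). Of the markers on the other lists, erythroid genes were lower in 7 of 7 cases and lymphocyte genes in 5 of 10, macrophage genes were higher in 1 and lower in 2 of 12, and mesothelial genes higher in 1 and lower in 3 of 6. The summed mesothelial markers were nevertheless higher in every DKO-labelled library, at 2478 to 4072 scaled counts, against 1310 to 1970 in controls. The erythroid and lymphocyte sums were lower in every DKO-labelled library than in every control, and the macrophage sums overlapped. The part of these cells in the results was not tested. The fibroblast covariate, a mean log2 level, was 8.40, 8.56, 9.02 and 8.26 in the DKO-labelled libraries and 8.89 to 9.05 in controls. It moved with the label, so the fit with it cannot cleanly separate the label from the fibroblast level. Mitochondrial shares of the reads also moved with the groups. Protein-coding mitochondrial genes held 0.819 to 0.969% of reads in the DKO-labelled libraries, 1.17 to 1.31% in K2KO, 1.16 to 1.53% in K4KO and 1.11 to 1.41% in controls. Mitochondrial rRNA held 16.8 to 18.2% in the DKO-labelled libraries, 18.2 to 20.9% in K2KO, 19.1 to 22.8% in K4KO and 18.6 to 22.7% in controls. Both shares were lower in every DKO-labelled library than in every control, and their part in the results was not tested.

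**Figure D5:**
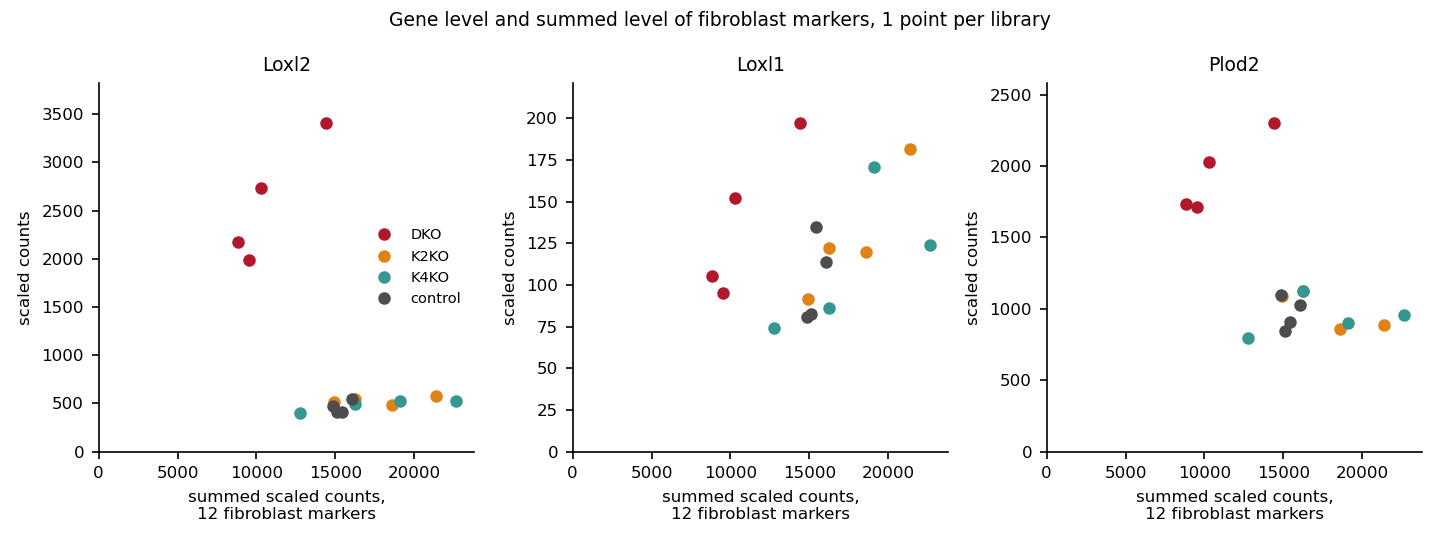
Scaled counts of Loxl2, Loxl1 and Plod2 against the summed scaled counts of 12 fibroblast markers, 1 point per library. The 4 DKO-labelled libraries are high in Loxl2 and Plod2 at marker sums of 8855 to 14408, lower than in every control, and Loxl1 climbs with the marker sum inside the groups.

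The genes most like each member over the 16 libraries were picked by Pearson's r of log2 levels among 10850 genes with a mean of at least 100 scaled counts; shared groups set much of this likeness. For Loxl2 they were Nid1 (r = 0.99), a basement membrane linker, Edem1 (0.99) and Man1a (0.99), which trim or sort glycoproteins in the secretory pathway. For Plod2 they were Zdhhc20 (0.99), a palmitoyltransferase, Blzf1 (0.98), a Golgi protein, and Atp7a (0.98), the copper transporter that loads secreted copper enzymes. Atp7a averaged 2938 ± 220 scaled counts in the DKO-labelled libraries and 1332 ± 76.3 in controls (log2 change 1.14, limma adjusted p = 1.47e-08).

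For Loxl4 the nearest genes were Alyref (r = 0.96), Fxyd6 (0.94) and Ripk3 (0.93). For Plod1 they were Pus1 (0.97), Atxn7l3 (0.96) and Cdipt (0.96), and for Plod3 Tbc1d9b (0.98), Smarca4 (0.98) and Flt4 (0.97), the receptor of VEGF-C. Lox had weaker neighbours, Pde1b (0.85), Olfml2a (0.81) and A2m (0.81), and so did Loxl3, with Dennd2a (0.81) and Csad (0.79). The neighbours of Loxl1 were Gpx3 (0.88), Col6a2 (0.88) and Col1a1 (0.88), of which the last 2 are collagen chains made largely by fibroblasts.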

How the data were processed

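RNA was measured in 16 libraries of stranded Illumina sequencing, per the labels' protocols; the submitters' processing notes name TopHat, Cuffdiff and GRCm38. The authors deposited 1 table whose library columns hold a signal: in each column 100% of the values were whole multiples of 1 step (tolerance 0.001 reads), so gene reads had been divided by 1 factor per library and were recovered from it. The authors also deposited adjusted p-values, used only to count their calls. Columns of controls and K4KO carry the labels' replicate numbers; those of DKO and K2KO are numbered 2 to 5, so a library number there is a column number.

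limma 3.58.1 in R 4.3.3 (eBayes with trend) was fitted to log2(value + 1) keeping genes that reached 1 in at least 4 libraries, with 4 group means over all 16 libraries. Benjamini-Hochberg adjustment was made within each comparison. The added 1 shrinks the log2 changes of genes with few reads, and 1 read was worth 0.305 to 1.46 scaled counts. The fit was tested on simulated data with known changes, where small changes were often missed. An uncalled member is therefore not shown to be unchanged, least of all for changes as small as those of Lox, Plod1 and Plod3. Alternatives were another pseudocount, 2 other filters, 2 scalings, the compared groups alone, robust limma, a fibroblast marker covariate, edgeR 4.0.16 and DESeq2 1.42.0 on the recovered reads, and leaving out each library. Controls and K4KO libraries of the same number deviated together over 11315 genes, with r of 0.14, 0.22, 0.26 and 0.52, so a replicate block was fitted for that pair; K4KO library 1 was nearer to control 2 (0.40).

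The members and lists were chosen with earlier results of these data known. Named genes were the 8 members, Klf2 and Klf4, up to 4 genes per pathway list of the smallest p for DKO over control, the 3 genes most like each member (1 of them is not reported here), and cell type markers. Exon lengths are from GENCODE M21. Of 164 list entries 163 were matched, 5 of them by another symbol (P3h1 as Lepre1).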

Additional observations from a re-analysis of the deposited data

Results flagged for a closer look

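The effect of the DKO label over K2KO differed from the effect of K4KO over control for 4 members, tested as an interaction in limma over all genes. The interaction was 2.17 on the log2 scale for Loxl2 (adjusted p = 1.10e-06), 1.01 for Plod2 (3.15e-04), 0.63 for Plod1 (0.0223) and 0.50 for Plod3 (0.0494). For Loxl2 and Plod2 the call held in every alternative and with every library left out, while the Plod1 and Plod3 calls were lost in some. Neither Klf2 nor Klf4 was lower in the DKO-labelled libraries, so the interaction is between labels. In 32 groups of 4 libraries, 1 for each member and group, no library was flagged by Dixon's criterion. With 4 values it can flag only a wide gap, so the lack of a flag does not show that libraries were alike. Plod1 in K4KO library 4, at 3543 scaled counts against 5272 to 6460 in the rest of its group, was not flagged.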

How the results depend on the processing

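Loxl2, Plod2, Loxl4 and Lox kept their calls against controls in the DKO-labelled group in every alternative run and with each library left out. The count of members called there ranged from 4 to 6 with libraries left out. Plod1 and Plod3 lost their calls with quantile normalisation and with robust limma, and Loxl1 was added with the fibroblast covariate. In those settings 4262, 4259 and 3986 of 23816 genes were called higher, against 4528 in the main fit. Against K2KO the member count was 3, but 6 with libraries scaled to the same median. It was 5 with the compared groups alone and 5 with DESeq2 (2 to 4 with libraries left out). Plod3 lost its call there with quantile normalisation and with robust limma. Of all genes, 6897 of 23816 were called higher with the same median, against 4210 in the main fit. With the compared groups alone 4830 of 20570 were, and with DESeq2 4552 of 19564. Against K4KO the member count was 5, but 6 with the same median (Loxl3 added) and 6 with the fibroblast covariate (Loxl1 added). In those settings 7502 and 3783 of 23816 genes were called higher, against 4557 in the main fit. DESeq2 called 1 member in K2KO against controls, and 123 of 16826 genes. Between K2KO and K4KO 1 was called (Loxl4) with the filter on a mean of at least 5, with quantile normalisation, with edgeR and with DESeq2, and 0 to 1 with libraries left out. Of all genes, 130 of 16904, 104 of 23816, 125 of 15694 and 303 of 15458 were called in those settings. The interaction count was 4, but 2 with quantile normalisation and 2 with robust limma (3 to 4 with libraries left out). There 2609 and 2632 of 23816 genes had a called positive interaction, against 3060 in the main fit. The causes were not tested.

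The replicate block left 0 members called in K4KO against controls, with 30 genes called in place of 15. Other counts of genes that moved by over 1.5 times were, in K4KO against controls, 80 with DESeq2, 8 with no filter, 2 with the compared groups alone and 2 with robust limma. In K2KO against controls, 40 became 123 with DESeq2, 22 with the fibroblast covariate, 24 with no filter, 81 with the compared groups alone and 10 with robust limma. Between K2KO and K4KO, 106 became 303 with DESeq2 and 38 with robust limma. Scaling to the same median moved the median of all genes in DKO against control to 0.18 in place of -0.03, and the split to 6922 higher and 2908 lower in place of 4528 and 4591.

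Uncalled changes turned sign. With quantile normalisation they were 0.0039 (Loxl3, K2KO against control), 0.0015 (Loxl3, K4KO against control), -0.018 (Lox, DKO against K2KO), -0.041 (Lox, DKO against K4KO), 0.0023 (Loxl3, K2KO against K4KO) and 0.14 (Loxl1, interaction). With the same median they were 0.016 (Lox) and 0.027 (Loxl3) in K2KO against K4KO, and 0.30 for the Loxl1 interaction. With the fibroblast covariate they were -0.0077 (Plod2) and -0.042 (Plod3) in K2KO and -0.070 (Loxl1) in K4KO. That fit also turned the Loxl1 interaction to 1.10 and called it (adjusted p = 0.0205). With edgeR they were -0.0031 (Plod3, K2KO), 0.0046 (Loxl3, K4KO) and -0.024 (Lox, DKO against K4KO), and with DESeq2 -0.00050 (Plod3, K2KO) and 8.1e-05 (Loxl3, K4KO). With libraries left out, the ranges that crossed 0 were in DKO against K2KO -0.025 to 0.12 (Lox), -0.12 to 0.26 (Loxl1), -0.011 to 0.17 (Loxl3); in DKO against K4KO -0.063 to 0.14 (Lox), -0.020 to 0.18 (Loxl3); in K2KO against K4KO -0.10 to 0.10 (Lox), -0.074 to 0.086 (Loxl3), -0.011 to 0.16 (Plod2), -0.0085 to 0.21 (Plod3); in K4KO against control -0.12 to 0.28 (Loxl1), -0.099 to 0.063 (Loxl3), -0.16 to 0.045 (Loxl4), -0.13 to 0.040 (Plod2), -0.24 to 0.019 (Plod3); in the interaction -0.21 to 0.20 (Loxl1), -0.0072 to 0.19 (Loxl3); in DKO against control -0.024 to 0.16 (Loxl3); in K2KO against control -0.068 to 0.054 (Loxl3), -0.035 to 0.094 (Plod2), -0.11 to 0.078 (Plod3).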
